A study of Homo sapiens with 12 samples.

Results

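The expression of 40 genes of DNA replication and of the G1/S transition was measured by mRNA sequencing in 2 human keratinocyte lines, HaCaT and TIGK, untreated and after exposure to H2O2. The 40 genes were chosen by name and all 40 were found once each among the 58735 genes of the count table. HaCaT is an immortalized line from skin, and TIGK is an immortalized line from oral epithelium, the gingiva. Cells of both lines were kept in DermaLife K Keratinocyte Complete Medium and were grown to full confluency. They were then left in that medium (HaCaT control, TIGK control) or exposed to 5 mM H2O2 for 3 h (HaCaT H2O2, TIGK H2O2), with 3 libraries in each of the 4 groups. Skin and oral keratinocytes were each represented by a single line, so a difference between the lines cannot be told apart from a difference between the tissues. The labels number the replicates but do not say whether they were separate cultures, and p-values then measure only the spread between these samples.

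The 12 libraries held between 30426401 and 49034244 counts. All 7 keratinocyte markers checked, KRT5 and KRT14 among them, were detected in every group, with summed levels from 1281300 to 1735100 normalised counts per library. The summed levels of 7 fibroblast markers were 311 to 418 in HaCaT and 804 to 938 in TIGK, those of 6 melanocyte markers 154 to 230 and 426 to 707, and those of 5 leukocyte markers 1.17 to 13.8 and 87.8 to 123. In each of the 12 replicate pairs the counts were farther apart than sampling noise allows, the chi-square divided by its degrees of freedom being 4.50 at the least and 29.2 at the most. No replicate was thus the same library counted again, which does not show that the replicates were separate cultures. HaCaT H2O2 replicate 3 and TIGK control replicate 3 lay farthest from the other libraries of their groups. Normalised counts are raw counts scaled to a common library size by the TMM method.

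Before a cell copies its DNA, the origin recognition complex (ORC), CDC6 and CDT1 load the MCM helicase onto origins in G1, a step called licensing. At the G1/S transition, cyclin D and cyclin E with their kinases relieve the block that the retinoblastoma protein holds on E2F factors, and E2F factors switch on many genes of replication. CDC45 and the GINS complex then turn the loaded MCM ring into the active helicase (CMG), the primase and DNA polymerase alpha start each strand, and the sliding clamp PCNA, its loader RFC, FEN1 and LIG1 complete synthesis and join the fragments. In epithelia such as epidermis and gingiva these genes are known to be active in the proliferating basal layer and low in differentiated cells. In bulk RNA, a change in the number of cells that are in S phase and a change in the RNA of these genes per cell cannot be told apart.

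The 40 genes together held 0.361% ± 0.00781 (SD, n = 3) of all counts in HaCaT control, 0.418% ± 0.00153 in HaCaT H2O2, 0.490% ± 0.00547 in TIGK control and 0.526% ± 0.0044 in TIGK H2O2. Their share was thus highest in the exposed TIGK libraries. The share of mitochondrially encoded genes moved as well, from 6.18% ± 0.0795 to 3.40% ± 0.103 in HaCaT and from 3.39% ± 0.0606 to 1.43% ± 0.061 in TIGK. With these mitochondrial genes removed before scaling, the numbers of the 40 genes that passed the test were 22 higher and 2 lower after H2O2 in HaCaT and 11 higher and 4 lower in TIGK, against 23, 2, 10 and 4 with them.

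Levels between genes were compared as counts per kilobase of gene model scaled to library size (CPM per kb, mean ± SD, n = 3). The most abundant transcript in all groups was that of PCNA, the sliding clamp, at 208 ± 3.51 in HaCaT control, 269 ± 24.7 in HaCaT H2O2, 170 ± 11.7 in TIGK control and 188 ± 5.96 in TIGK H2O2. In HaCaT control it was followed by CCND1, which encodes cyclin D1, at 77.3 ± 1.92 and the helicase subunit MCM7 at 76.9 ± 1.26, neighbours that did not differ beyond their spread. In TIGK control MCM4 and CCND1 came next, at 110 ± 0.885 and 104 ± 4.15. The lowest level belonged to the transcription factor gene E2F2, with 1.16 ± 0.041 in HaCaT control and 1.78 ± 0.122 in TIGK control. The MCM subunits, which act in a hexamer with equal parts, were not at equal levels when scaled in this way. In HaCaT control they ran from 16 for MCM5 to 76.9 for MCM7, and in TIGK control from 27 for MCM5 to 110 for MCM4. All ranks of this paragraph depend on the deposited model lengths. In HaCaT control MCM5 and MCM2 had 4258 and 4289 normalised counts. Their models of 7338 and 4902 bases put them at 16 and 24.1 CPM per kb.

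**Figure D1:**
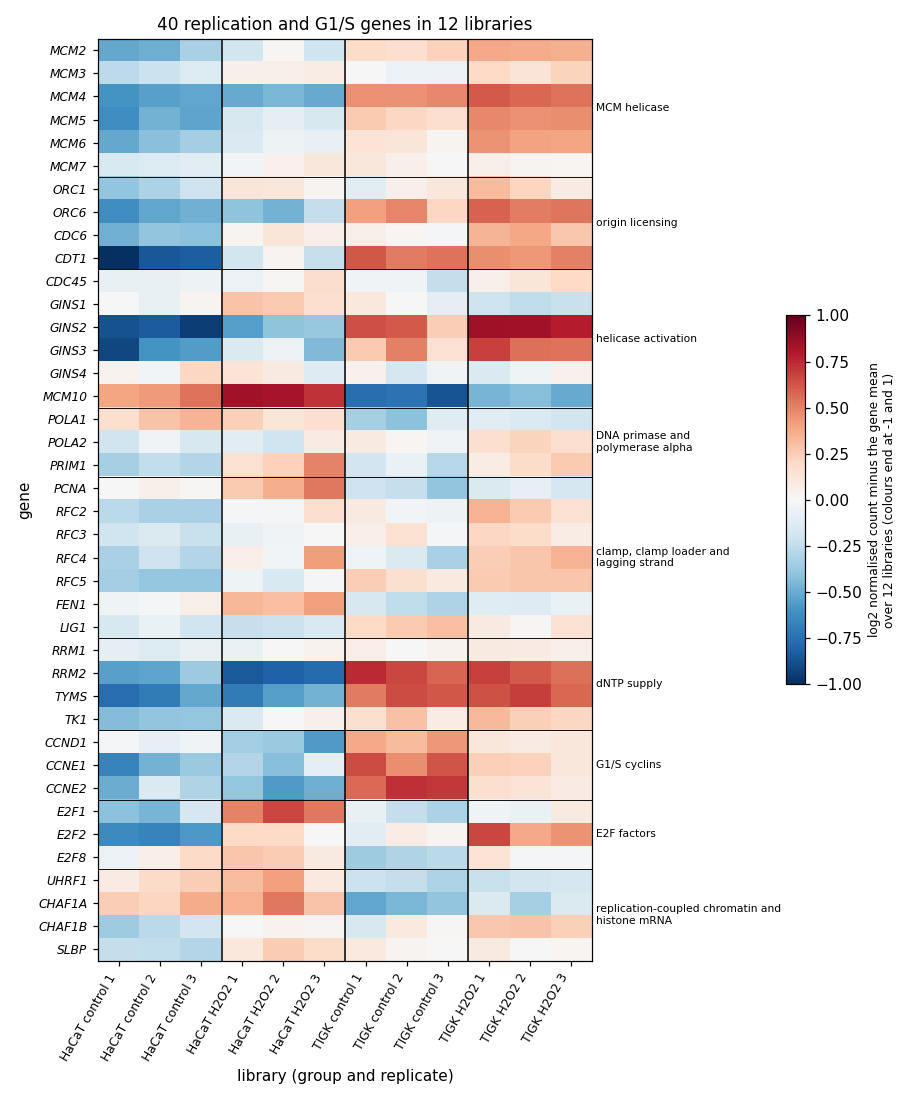
Heat map of the 40 genes (rows, grouped by role) in the 12 libraries (columns). Colour gives the log2 normalised count minus the mean of that gene over the 12 libraries, from blue (lower) to red (higher). CDT1, GINS2, TYMS and RRM2 are blue in all HaCaT libraries or pale in the exposed ones and red in all TIGK libraries, MCM10 has the reverse order, and E2F1 is reddest in the 3 HaCaT H2O2 libraries.

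Because E2F factors are known regulators of replication genes, the promoters of the members were searched for E2F words. RefSeq promoters of GRCh38.p14, from 250 bases before to 50 bases from the transcript start, were matched by symbol for 34 of the 40 genes, and for a gene with several starts the start nearest to the 5′ end of the deposited gene was used. The start used lay 97391 bases from that end for GINS3, 6421 for UHRF1, 3115 for RFC5, 1870 for RRM2 and 1119 for GINS2. For the other genes matched it lay at most 576 bases away. MCM4, MCM5, GINS4, CCND1, CCNE2 and E2F8 had no entry. The words TTTCCCGC, TTTCGCGC, TTTGCCGC and TTTGGCGC, read on both strands, were found in 18 of the 34 promoters (52.9%) and in 3.31% of all 35116 promoters of the same length. The 18 were those of MCM2, MCM3, MCM6, MCM7, CDC6, CDT1, GINS1, GINS2, GINS3, POLA1, POLA2, PCNA, RFC3, LIG1, TYMS, E2F1, E2F2 and UHRF1. The cell cycle words TTTGAA and TTCGAA, known from promoters of mitosis genes, were in 2 of the 34 promoters, in 11 of 15 promoters of mitosis genes and in 16.4% of all promoters. The CCAAT word was in 18 of the 34, in 13 of the 15 and in 34.6% of all. The GC box word GGGCGG was in 25 of the 34, in 11 of the 15 and in 45% of all. The E2F words were in 2 of the 15 promoters of mitosis genes. The 160 bases before the start are shown for genes whose response to H2O2 is described, with each E2F word in capitals. E2F1 and CDT1 had the largest responses in HaCaT, E2F2, MCM6 and GINS2 passed the test in both lines, and CCNE1, which fell in TIGK, is shown as a promoter in which none of these letters were found.
E2F1, chr20:33686386-33686545, minus strand: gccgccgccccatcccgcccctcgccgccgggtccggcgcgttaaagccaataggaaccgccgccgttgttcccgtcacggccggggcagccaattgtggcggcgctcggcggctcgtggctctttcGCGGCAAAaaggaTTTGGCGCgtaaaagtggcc
E2F2, chr1:23531234-23531393, minus strand: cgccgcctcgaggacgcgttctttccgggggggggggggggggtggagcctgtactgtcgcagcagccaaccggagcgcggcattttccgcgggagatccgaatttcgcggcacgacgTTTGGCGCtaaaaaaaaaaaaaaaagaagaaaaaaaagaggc
CDT1, chr16:88803629-88803788, plus strand: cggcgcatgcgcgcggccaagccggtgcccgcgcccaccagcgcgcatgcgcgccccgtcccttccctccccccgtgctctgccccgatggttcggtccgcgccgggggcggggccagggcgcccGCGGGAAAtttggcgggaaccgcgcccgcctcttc
MCM6, chr2:135876444-135876603, minus strand: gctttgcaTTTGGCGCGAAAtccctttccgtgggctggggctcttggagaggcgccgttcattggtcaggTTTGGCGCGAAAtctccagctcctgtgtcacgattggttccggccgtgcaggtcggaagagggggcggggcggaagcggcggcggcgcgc
GINS2, chr16:85688955-85689114, minus strand: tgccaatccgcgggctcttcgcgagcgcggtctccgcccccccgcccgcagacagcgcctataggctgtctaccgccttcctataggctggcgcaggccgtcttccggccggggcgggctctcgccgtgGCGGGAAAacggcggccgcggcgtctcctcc
CCNE1, chr19:29811831-29811990, plus strand: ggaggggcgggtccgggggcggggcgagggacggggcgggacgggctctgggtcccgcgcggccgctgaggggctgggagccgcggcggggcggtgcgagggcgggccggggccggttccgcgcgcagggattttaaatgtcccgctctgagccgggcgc
In MCM6, an E2F word and a word read on the other strand overlap at 2 places, so that 4 matches form 2 blocks. In E2F1 the matches start 33 and 20 bases before the transcript start. A match is a description of these letters and not a site shown to be bound. Of the 18 genes with a word and the 16 without one, 12 and 10 were higher after H2O2 in HaCaT by the test described next, with median log2 fold changes of 0.29 and 0.32. In TIGK, 5 and 4 of them were higher, with medians of 0.15 and 0.18.

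To ask how the replication genes of each cell type responded to 3 h of H2O2, exposed libraries were compared with untreated libraries of the same line. All tests were edgeR's quasi-likelihood test over the 16618 genes with a mean count of at least 10, with p-values adjusted by the Benjamini-Hochberg method and a limit of 0.01. All 40 genes passed this filter on low counts. In HaCaT, 23 of the 40 genes were higher and 2 were lower after H2O2. Of all genes tested, 18.9% were higher and 15.2% lower. Among the 9328 genes at least as abundant as the lowest of the 40, higher and lower genes made up 29.7% and 19.1%. The 40 genes had a median log2 fold change of 0.28, against 0.04 over all genes tested. The changes were small: the largest rise, of E2F1, was 0.91 on the log2 scale, and 4 genes (CDT1, PRIM1, E2F1 and E2F2) passed the limit with a rise of at least 1.5-fold. The share of all genes tested that did so was not computed.

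In TIGK, 10 of the 40 genes were higher and 4 were lower after H2O2, where 10.2% of all genes tested were higher and 12.9% lower. Among the 9328 more abundant genes, higher and lower ones made up 16.1% and 17.1%. The 40 genes had a median log2 fold change of 0.15, against 0.01 over all genes tested. None of the 40 passed the limit with a change of at least 1.5-fold, and the share of all genes tested that did so was not computed. The count of higher genes depended on single libraries: it ranged from 5 to 15 when each library was left out in turn, with 5 without TIGK H2O2 replicate 1. The 15 came without HaCaT H2O2 replicate 1, a library outside this comparison. Higher calls over all genes moved as well, from 1699 with all libraries to 1173 and 2328 in these fits. The count of lower genes was 1 without TIGK H2O2 replicate 2 and 2 without TIGK control replicate 1, TIGK H2O2 replicate 1 or TIGK H2O2 replicate 3.

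The 10 genes that rose in TIGK (MCM3, MCM5, MCM6, CDC6, GINS2, MCM10, RFC2, RFC4, E2F2 and CHAF1B) were all among the 23 that rose in HaCaT, and made up 43.5% of those. Over all genes tested, 65.1% of the genes that rose in TIGK also rose in HaCaT, and 35.3% of those that rose in HaCaT also rose in TIGK. CCND1 fell in both lines, and GINS1 rose in HaCaT and fell in TIGK. The other 12 genes that rose in HaCaT (MCM2, MCM7, ORC1, CDT1, GINS3, PRIM1, PCNA, RFC5, FEN1, TK1, E2F1 and SLBP) did not pass the test in TIGK, and whether their responses differed between the lines is tested further on. A set of 13 genes passed in neither line: MCM4, ORC6, CDC45, GINS4, POLA1, POLA2, RFC3, LIG1, RRM1, TYMS, E2F8, UHRF1 and CHAF1A. The libraries of the exposed and untreated groups did not overlap for 29 of the 40 genes in HaCaT (27 higher, 2 lower; 29.7% and 24.1% of all genes tested) and for 29 in TIGK (23 higher, 6 lower; 25.7% and 25.4%).

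**Figure D2:**
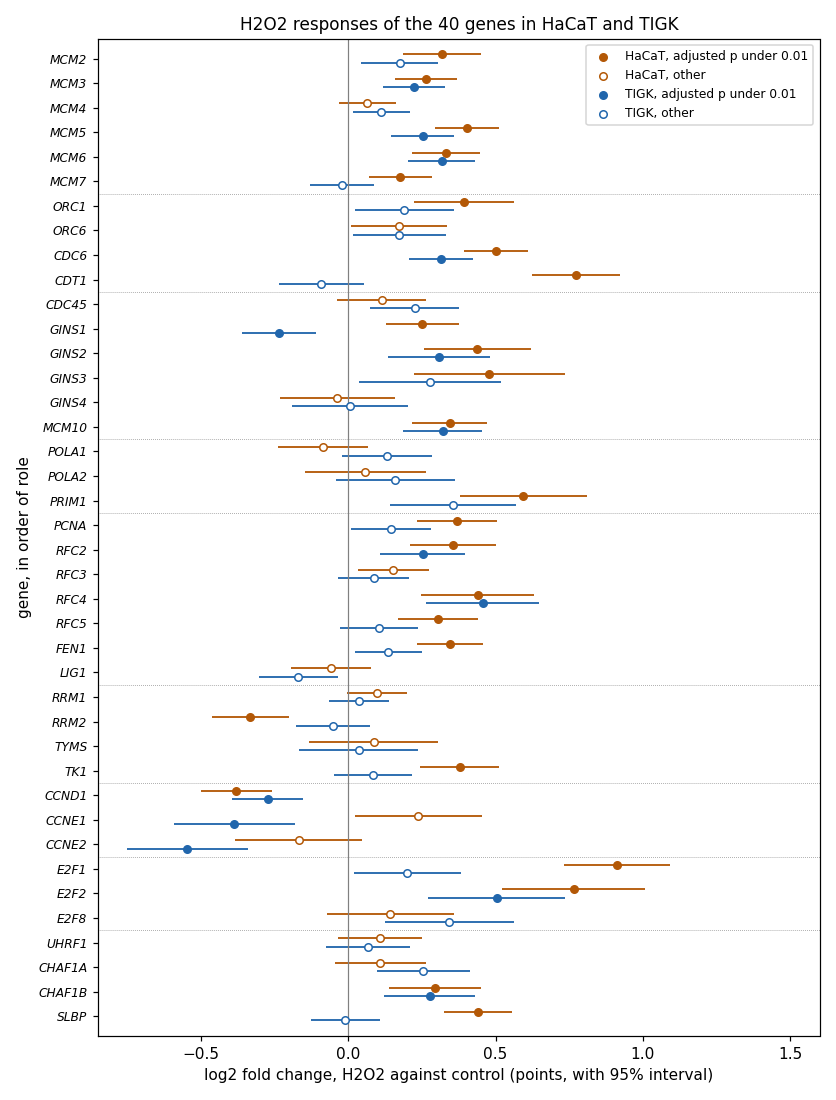
Response of each of the 40 genes to H2O2 in HaCaT (brown) and TIGK (blue), as the log2 fold change with its 95% interval on the horizontal axis and the genes in order of role on the vertical axis. Filled points passed the limit of 0.01. Most points lie right of 0, the 3 cyclin genes lie left of 0 in TIGK, and the intervals of the 2 lines are farthest apart for CDT1.

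The subunits of the MCM helicase, the ring that unwinds DNA at the fork, rose in 5 of 6 cases in HaCaT and in 3 of 6 in TIGK. Here and in the roles below, counts rest on few genes each. Among the 9328 more abundant genes, 29.7% were higher and 19.1% lower in HaCaT, and 16.1% and 17.1% in TIGK. A single call in a role is near these shares and is no result about that role. MCM6 gave 4341, 4627 and 4885 normalised counts in HaCaT control and 5594, 5966 and 5878 in HaCaT H2O2, a log2 fold change of 0.33 (SE 0.055, adjusted p = 8.5e-05). In TIGK it gave 6776, 6711 and 6305 in control and 8406, 8143 and 8101 after H2O2, a log2 fold change of 0.32 (SE 0.054, adjusted p = 0.00017). The groups did not overlap in either line, and the rise was of nearly the same size in both. MCM5 rose by 0.40 ± 0.052 (log2 fold change ± SE) in HaCaT and by 0.25 ± 0.051 in TIGK. MCM2 rose by 0.32 ± 0.063 in HaCaT and had a log2 fold change of 0.17 ± 0.062 in TIGK, with an adjusted p of 0.035. The call of MCM7 in HaCaT, at 0.18 ± 0.051, was lost in 17 of 21 alternative analyses. MCM4, the most abundant MCM transcript in TIGK, had log2 fold changes of 0.06 ± 0.047 in HaCaT and 0.11 ± 0.046 in TIGK and passed in neither.

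Among the licensing genes, which load the MCM ring in G1, 3 of 4 rose in HaCaT and 1 of 4 rose in TIGK. The count in TIGK is near the 16.1% of the 9328 more abundant genes that were higher there. CDC6, the loader ATPase, gave 3478, 3687 and 3647 normalised counts in HaCaT control and 4949, 5276 and 5086 after H2O2, and in TIGK 5044, 4904 and 4780.2 in control and 6145, 6338 and 5848 after H2O2. It rose in both lines without overlap of the groups, by 0.50 (SE 0.052, adjusted p = 5.3e-07) in HaCaT and 0.32 (SE 0.052, adjusted p = 0.00011) in TIGK. CDT1, the partner of CDC6 in loading, which is known to be degraded and inhibited once S phase begins, gave 1366, 1538 and 1567 in HaCaT control and 2447, 2824 and 2364 in HaCaT H2O2. Its counts in TIGK were 4278, 3969 and 4034 in control and 3823, 3758 and 3944 after H2O2. All exposed HaCaT libraries lay above all untreated ones, and all TIGK libraries, exposed or not, lay above all HaCaT libraries. The log2 fold change of CDT1 was 0.77 (SE 0.071, adjusted p = 1.1e-07) in HaCaT and -0.09 (SE 0.068, adjusted p = 0.32) in TIGK. ORC1, the largest ORC subunit, rose by 0.39 ± 0.081 in HaCaT and ORC6 passed in neither line, at 0.17 ± 0.078 in HaCaT and 0.17 ± 0.075 in TIGK.

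The genes that activate the helicase rose in 4 of 6 cases in HaCaT, while 2 rose and 1 fell in TIGK. GINS1, a subunit of the GINS complex, was the only one of the 40 genes that passed in opposite directions. It gave 3071, 2909 and 3119 normalised counts in HaCaT control and 3725, 3677 and 3431 after H2O2, and 3296, 3058 and 2881 in TIGK control and 2645, 2567 and 2629 after H2O2. The exposed libraries lay above the untreated ones in HaCaT and below them in TIGK, with log2 fold changes of 0.25 (SE 0.059, adjusted p = 0.002) and -0.24 (SE 0.060, adjusted p = 0.0047). The call in TIGK was lost in 7 of 21 alternative analyses and that in HaCaT in 4 of 21. Its partner GINS2 rose in both lines, by 0.44 ± 0.086 in HaCaT and 0.31 ± 0.082 in TIGK, and GINS3 rose by 0.48 ± 0.12 in HaCaT, with the call of GINS2 in TIGK lost in 5 and that of GINS3 in 4 of 21. GINS4, the remaining subunit, passed in neither line, at -0.04 ± 0.093 and 0.01 ± 0.094. MCM10, which helps to activate the helicase, rose by 0.34 ± 0.061 in HaCaT and by 0.32 ± 0.064 in TIGK.

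Of the primase and polymerase alpha genes, which make the primers of each strand, PRIM1 rose in HaCaT and none passed in TIGK. This count in HaCaT is near the 29.7% of the 9328 more abundant genes that were higher there. PRIM1, the catalytic primase subunit, gave 448, 474 and 458 normalised counts in HaCaT control and 626, 659 and 795 after H2O2, a log2 fold change of 0.59 (SE 0.10, adjusted p = 0.00013). HaCaT H2O2 replicate 3 was the highest of these libraries, and all exposed libraries lay above all untreated ones. In TIGK the log2 fold change of PRIM1 was 0.36 (SE 0.10, adjusted p = 0.011). Its deposited span shares 33 bases with NACA on the same strand, so some of its reads may be assigned otherwise. POLA1 and POLA2, subunits of the polymerase, had log2 fold changes from -0.09 to 0.16 over both lines and did not pass.

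Of the 7 genes of the clamp, clamp loader and lagging strand, 5 rose in HaCaT and 2 rose in TIGK. PCNA gave 10959.8, 11325 and 11071 normalised counts in HaCaT control and 13169.5, 14130.2 and 15778 after H2O2, a log2 fold change of 0.37 (SE 0.065, adjusted p = 0.00015). Its counts in TIGK were 9488, 9348 and 8342 in control and 9903, 10377 and 9772 after H2O2, a log2 fold change of 0.14 (SE 0.065, adjusted p = 0.088). The libraries of the groups did not overlap in either line, but the difference in TIGK did not pass the limit. RFC4, a subunit of the clamp loader, rose by 0.44 (SE 0.091, adjusted p = 0.00071) in HaCaT and by 0.46 (SE 0.091, adjusted p = 0.00071) in TIGK. RFC2, another loader subunit, rose in both lines, but its call in TIGK was lost in 9 of 21 alternative analyses. FEN1, the flap nuclease, rose by 0.34 ± 0.054 in HaCaT, and the ligase gene LIG1 had a log2 fold change of -0.06 ± 0.064 there.

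The genes that supply deoxynucleotides did not move together. RRM2, the regulatory subunit of ribonucleotide reductase and known to limit dNTP production, gave 2851, 2884 and 3233 normalised counts in HaCaT control and 2314, 2375 and 2429.8 after H2O2. It fell there, with a log2 fold change of -0.33 (SE 0.062, adjusted p = 0.00027) and no overlap of the groups. The TIGK libraries held 6955, 6609.7 and 6229 in control and 6664, 6359.9 and 6069 after H2O2, and the log2 fold change was -0.05 (SE 0.060, adjusted p = 0.53), with overlapping groups. TK1, the thymidine kinase of the salvage pathway, rose by 0.38 (SE 0.064, adjusted p = 0.0001) in HaCaT. RRM1, the catalytic subunit, and TYMS, thymidylate synthase, passed in neither line, with log2 fold changes between 0.04 and 0.10.

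Of the 3 G1/S cyclins, 3 fell in TIGK and 1 fell in HaCaT. CCND1, which encodes cyclin D1, the cyclin that links growth signals to CDK4 and CDK6, gave 13841, 13179 and 13621 normalised counts in HaCaT control and 10971, 10831 and 9429 after H2O2. The TIGK libraries held 18146, 17401 and 18856 in control and 15089.6, 14793 and 15093 after H2O2. All exposed libraries lay below all untreated ones in both lines, with log2 fold changes of -0.38 (SE 0.058, adjusted p = 3.9e-05) in HaCaT and -0.27 (SE 0.058, adjusted p = 0.0011) in TIGK. The cyclin E genes, whose products activate CDK2 at the start of S phase, fell in TIGK. CCNE1 gave 1086, 954 and 1068 in TIGK control and 818, 811 and 748 after H2O2, a log2 fold change of -0.39 (SE 0.098, adjusted p = 0.0047). CCNE2 gave 797, 892 and 875 in TIGK control and 601, 586 and 568 after H2O2, a log2 fold change of -0.55 (SE 0.098, adjusted p = 0.00025). Neither pair of TIGK groups overlapped. Of 21 alternative analyses, 5 lost the call of CCNE1 in TIGK, each by leaving out 1 TIGK library, 1 lost that of CCND1 in TIGK, without TIGK H2O2 replicate 2, and 0 lost that of CCNE2. In HaCaT, CCNE1 gave 436, 498 and 536 in control and 565, 516 and 647 after H2O2, and the log2 fold change was 0.24 (SE 0.10, adjusted p = 0.065). CCNE2 gave 381, 486 and 435 in HaCaT control and 411, 361 and 383 after H2O2, and the log2 fold change was -0.17 (SE 0.10, adjusted p = 0.19). The HaCaT groups overlapped for both genes. CCND1 shares 1399 bases of its span with LTO1 and CCNE2 shares 1977 bases with INTS8, both on the opposite strand, and it is not stated whether counting took strand into account.

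Of the E2F genes, E2F1 and E2F2, known as activators of S phase genes, rose in HaCaT and E2F2 rose in TIGK. E2F1 gave 1087, 1043 and 1281 normalised counts in HaCaT control and 2036, 2297 and 2083 after H2O2, a log2 fold change of 0.91 (SE 0.086, adjusted p = 1.5e-07) that was the largest of the 40 genes in HaCaT. Its counts in TIGK were 1369.8, 1223 and 1159 in control and 1397, 1375 and 1538 after H2O2, and the log2 fold change was 0.20 (SE 0.086, adjusted p = 0.076). The groups were apart in both lines, by a wide gap in HaCaT and a narrow gap in TIGK. E2F2 gave 227, 222 and 238 in HaCaT control and 407, 407 and 354 after H2O2, and in TIGK 326, 373 and 361 in control and 562, 461 and 483 after H2O2. No groups of a line overlapped. Its rise was 0.77 (SE 0.12, adjusted p = 3.6e-05) in HaCaT and 0.50 (SE 0.11, adjusted p = 0.0017) in TIGK, the largest rise among the 40 genes there, a call lost without TIGK control replicate 1 and without TIGK H2O2 replicate 1. E2F8, known as a repressor that acts later in S phase, had log2 fold changes of 0.14 (SE 0.10, adjusted p = 0.27) in HaCaT and 0.34 (SE 0.10, adjusted p = 0.015) in TIGK.

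Of the genes for replication-coupled chromatin and histone mRNA, 2 of 4 rose in HaCaT and 1 of 4 rose in TIGK. SLBP, which binds the stem-loop of histone mRNAs and is needed for their processing in S phase, gave 2654, 2646 and 2560.2 normalised counts in HaCaT control and 3372, 3733 and 3558 after H2O2. Its counts in TIGK were 3365, 3202 and 3146 in control and 3337, 3130.0 and 3181 after H2O2. The HaCaT groups were apart and the TIGK groups overlapped, with log2 fold changes of 0.44 (SE 0.056, adjusted p = 5.1e-06) and -0.01 (SE 0.055, adjusted p = 0.91). CHAF1B, a subunit of the histone chaperone CAF-1, rose by 0.30 ± 0.075 in HaCaT and 0.28 ± 0.073 in TIGK, although these calls were lost in 7 and 4 of 21 alternative analyses. UHRF1, which keeps DNA methylation in step with replication, had log2 fold changes of 0.11 ± 0.068 in HaCaT and 0.07 ± 0.069 in TIGK and passed in neither.

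To test whether the response itself differed between the lines, the response of HaCaT was subtracted from that of TIGK in the same model. Of the 40 genes, 0 had a higher response in TIGK and 5 had a lower one, CDT1, E2F1, CCNE1, GINS1 and SLBP, where 2.32% and 2.98% of all genes tested were called higher and lower. Among the 9328 more abundant genes the percentages were 3.55 and 4.62. At an unadjusted p under 0.05 the same edgeR test gave 2 higher and 12 lower, and the share over all genes was not computed there. DESeq2 at the limit of 0.01 also called 0 higher and 5 lower of the 40. Over all genes it called 689 higher and 737 lower. The median difference of the 40 was -0.11 on the log2 scale, against -0.04 over all genes tested. The difference was -0.86 for CDT1 (95% interval -1.07 to -0.66, adjusted p = 1.2e-05) and -0.71 for E2F1 (-0.96 to -0.46, adjusted p = 0.00075). These were the 2 calls that held in all 20 alternative analyses. For GINS1 it was -0.49 (-0.66 to -0.31, adjusted p = 0.00082), for SLBP -0.45 (-0.61 to -0.29, adjusted p = 0.00093) and for CCNE1 -0.63 (-0.92 to -0.33, adjusted p = 0.0072). The call of CCNE1 was lost in 16 of the 20 alternatives, that of SLBP in 3 and that of GINS1 in 1. The count fell to 2 without TIGK H2O2 replicate 2 and to 3 without HaCaT H2O2 replicate 2 or TIGK H2O2 replicate 3.

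In the deposited table, on GRCh38, the 5 genes lie at chr16:88803213-88809258 (+ strand) for CDT1, chr20:33675683-33686404 (- strand) for E2F1, chr20:25407727-25452628 (+ strand) for GINS1, chr4:1692800-1712555 (- strand) for SLBP and chr19:29811898-29824308 (+ strand) for CCNE1. They reached this difference in different ways. CDT1, E2F1 and SLBP passed the test in HaCaT alone, CCNE1 passed in TIGK alone, and GINS1 passed in both with opposite signs. For the other 9 genes that rose in HaCaT and did not pass in TIGK, the difference of the responses did not pass the limit. That does not show that the lines responded alike. For PCNA it was -0.22 (95% interval -0.42 to -0.03, adjusted p = 0.12) and for TK1 -0.29 (-0.48 to -0.11, adjusted p = 0.038). For the 10 genes that rose in both lines the difference ran from -0.26 (-0.60 to 0.07) for E2F2 to 0.02 (-0.25 to 0.29) for RFC4. Among them CDC6 stood at -0.19 (-0.34 to -0.03, adjusted p = 0.11) and MCM6 at -0.02 (-0.18 to 0.15). RRM2, which fell in HaCaT alone, had a difference of 0.28 (0.10 to 0.46, adjusted p = 0.04).

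**Figure D3:**
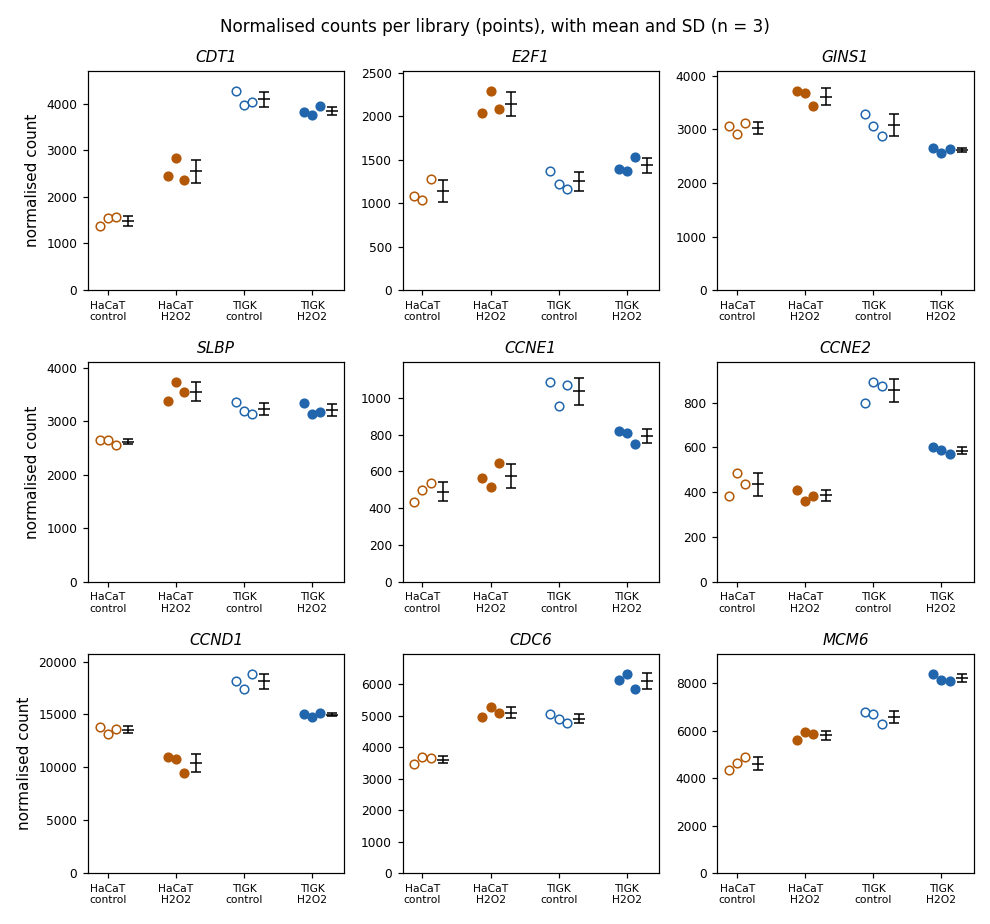
Normalised counts of 9 of the genes in each library (points, open for control and filled for H2O2, brown for HaCaT and blue for TIGK), with the mean and SD of each group (n = 3) beside them and a vertical axis that starts at 0 for each gene. CDT1, E2F1 and SLBP step up in HaCaT and stay nearly level in TIGK, CCND1 steps down in both lines, CCNE1 and CCNE2 step down in TIGK, and CDC6 and MCM6 step up in both.

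To compare the lines themselves, TIGK was set against HaCaT before and after H2O2. The comparison of untreated groups shares its libraries with both responses, so its values are given side by side with them and not as a separate line of evidence. Untreated, 25 of the 40 genes were higher and 7 were lower in TIGK, where 30.8% of all genes tested were higher and 29.1% lower. Among the 9328 more abundant genes these were 32.2% and 36.5%. For TIGK against HaCaT the 40 genes had a median log2 fold change of 0.31, against 0.01 over all genes tested. All 6 MCM genes, all 4 licensing genes, all 3 cyclin genes and 3 of the 4 dNTP genes were higher in TIGK. Of the 6 MCM genes, MCM3 and MCM7 had the smallest differences, at 0.16 ± 0.050 and 0.19 ± 0.051, and their calls were lost in several alternative analyses. The 7 lower genes were MCM10, POLA1, PCNA, FEN1, E2F8, UHRF1 and CHAF1A.

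The largest differences between the untreated lines were those of CDT1 at 1.46 (SE 0.071, adjusted p = 9.1e-13), GINS2 at 1.39 (SE 0.086, adjusted p = 3.2e-11), TYMS at 1.26 (SE 0.10, adjusted p = 1.7e-09) and RRM2 at 1.14 (SE 0.061, adjusted p = 4.1e-12), all higher in TIGK. GINS2 gave 1149, 1180.2 and 1095 normalised counts in HaCaT control and 3289.7, 3213 and 2497 in TIGK control, and TYMS gave 266, 277 and 316 in HaCaT control and 646, 709 and 695 in TIGK control. No TIGK control library overlapped with HaCaT control for these genes. TYMS shares 3255 bases with ENOSF1 on the opposite strand, and its level may hold reads of that gene. MCM10 had the largest difference in the other direction, with 2578, 2627 and 2854 normalised counts in HaCaT control and 1160.3, 1173 and 1079.8 in TIGK control, a log2 fold change of -1.24 (SE 0.063, adjusted p = 1.9e-12). CHAF1A, the large subunit of CAF-1, was lower in TIGK as well, with a log2 fold change of -0.74 (SE 0.075, adjusted p = 4.5e-08), and so were POLA1 at -0.54 (SE 0.073, adjusted p = 2e-06) and UHRF1 at -0.43 (SE 0.069, adjusted p = 1.8e-05). The 2 subunits of CAF-1 stood on opposite sides, with CHAF1B higher in TIGK by 0.26 ± 0.074 and CHAF1A lower. Among the genes that activate the helicase, GINS2 and GINS3 were higher in TIGK and MCM10, which is not a GINS subunit, was lower. The GINS subunits GINS1 and GINS4 did not pass, at 0.02 and -0.12.

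After H2O2, 20 of the 40 genes were higher and 8 were lower in TIGK than in HaCaT, where 29.8% of all genes tested were higher and 30.2% lower. Among the 9328 more abundant genes these were 30.4% and 38.6%. On the log2 scale the median of the 40 was 0.23, against -0.02 over all genes tested. All 20 higher genes had also been higher untreated, and 6 of the 8 lower genes had also been lower. The other 2, GINS1 and E2F1, had not passed the test between the untreated lines: the log2 fold change of GINS1 went from 0.02 untreated to -0.47 (SE 0.059, adjusted p = 1.1e-06) after H2O2 and that of E2F1 from 0.14 to -0.57 (SE 0.085, adjusted p = 7e-06). The higher calls of MCM3, MCM7, ORC1, RFC2 and SLBP and the lower call of E2F8 were made in untreated cells alone, and of these 6 genes SLBP was the 1 whose change between the states passed the test of the difference of the responses. RRM2 had the largest difference after H2O2, at 1.42 (SE 0.062, adjusted p = 2e-13), followed by GINS2 at 1.26 ± 0.085, TYMS at 1.21 ± 0.10 and MCM4 at 1.07 ± 0.047. MCM10 at -1.26 ± 0.063, CHAF1A at -0.59 ± 0.074 and PCNA at -0.52 ± 0.065 were lower in TIGK. The difference of CDT1 was 0.59 ± 0.069 after H2O2, where it had been 1.46 ± 0.071 untreated. The libraries of the lines did not overlap for 33 genes untreated (26 higher in TIGK, 7 lower; 37.1% and 36.2% of all genes tested) and for 32 after H2O2 (23 and 9; 35.6% and 35.8%).

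**Figure D4:**
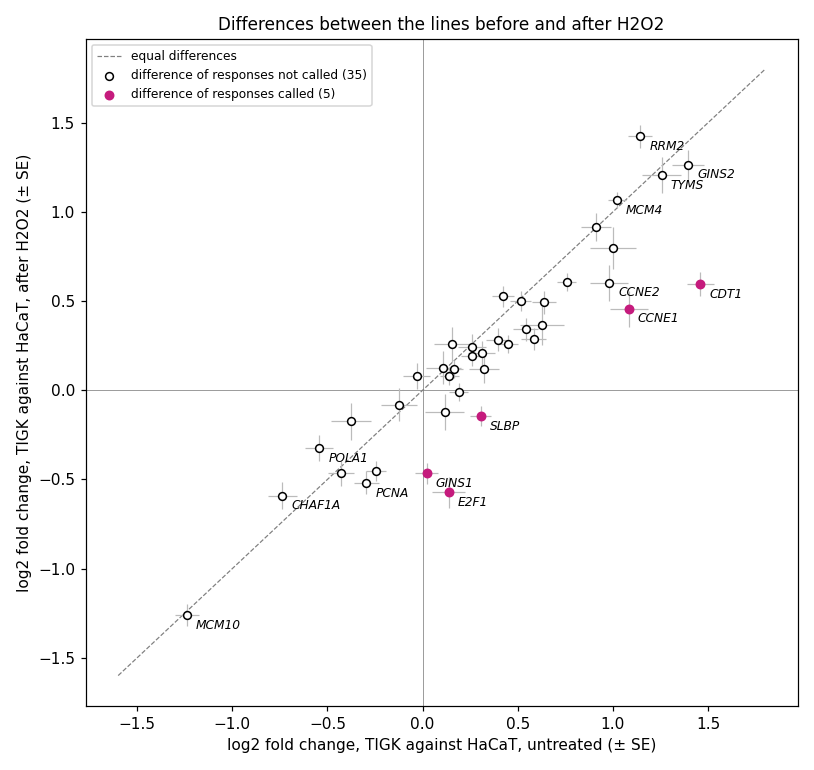
Difference of TIGK from HaCaT for each of the 40 genes, untreated on the horizontal axis and after H2O2 on the vertical axis, as log2 fold changes with their SE. Points on the dashed line had equal differences. Most points lie close to the line from MCM10 at the lower left to GINS2, TYMS and RRM2 at the upper right, and the 5 filled points, CDT1, CCNE1, SLBP, GINS1 and E2F1, lie below it.

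Beyond the 40 genes, lists of neighbouring genes were examined. Of 38 other genes of the replication machinery, 17 rose and 4 fell in HaCaT and 13 rose and 3 fell in TIGK, with median log2 fold changes of 0.21 and 0.10. Among the 9328 more abundant genes, 29.7% were higher and 19.1% lower in HaCaT, and 16.1% and 17.1% in TIGK. GMNN, which encodes geminin, the inhibitor of CDT1, rose by 0.79 (SE 0.088, adjusted p = 1.1e-06) in HaCaT and by 0.32 (SE 0.084, adjusted p = 0.0057) in TIGK. POLE, the catalytic subunit of the leading-strand polymerase, fell in both lines, with log2 fold changes of -0.63 (SE 0.070, adjusted p = 1.3e-06) in HaCaT and -0.68 (SE 0.069, adjusted p = 4.9e-07) in TIGK. MCM9, an MCM relative known from recombination repair, fell as well, at -0.61 ± 0.091 and -0.43 ± 0.091. ORC5, an ORC subunit, rose by 0.43 ± 0.092 in HaCaT and 0.57 ± 0.092 in TIGK, and MTBP, known to help origins fire, by 0.31 ± 0.085 and 0.58 ± 0.084. Of 8 other dNTP genes 3 rose in HaCaT, DCTPP1, DTYMK and DUT, by 0.61, 0.53 and 0.37 on the log2 scale, and none passed in TIGK. With 8 genes, the count in HaCaT is near the 29.7% above and is no result about this list. Of 9 other genes of replication-coupled chromatin, 5 rose in HaCaT and 4 rose in TIGK. Those that rose in both lines were the histone chaperone genes ASF1A, at 0.42 ± 0.11 in HaCaT and 0.41 ± 0.11 in TIGK, RBBP4, at 0.35 ± 0.051 and 0.34 ± 0.050, and ASF1B, at 0.31 ± 0.064 and 0.23 ± 0.064, and CDCA7, known for chromatin remodelling with HELLS, at 0.63 ± 0.051 and 0.22 ± 0.050. Of 21 alternative analyses, 12 lost the call of MTBP in HaCaT, 8 that of ASF1A in HaCaT, 6 that of ASF1A in TIGK, 9 that of ASF1B in TIGK and 5 that of GMNN in TIGK.

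Of 27 other regulators of G1/S, 8 rose and 2 fell in HaCaT and 7 rose and 4 fell in TIGK. The count of higher genes in HaCaT lies near the 29.7% of the 9328 more abundant genes that were higher there, and is no result about these regulators. The share of such genes in TIGK was 16.1% higher and 17.1% lower. CDK6, a partner of cyclin D, gave 14029.8, 14281 and 14673 normalised counts in HaCaT control and 7201, 6357 and 5988 after H2O2, and in TIGK 11150.3, 12521 and 13859 in control and 8235, 8179.5 and 8092 after H2O2. It fell in both lines without overlap, with log2 fold changes of -1.14 (SE 0.073, adjusted p = 9.6e-10) and -0.61 (SE 0.072, adjusted p = 2.8e-06). MYC, a transcription factor that drives growth and entry into the cycle, gave 23222, 21736 and 21509 in TIGK control and 37579.6, 38596 and 36249.7 after H2O2 and rose by 0.76 (SE 0.051, adjusted p = 1.7e-09). In HaCaT it gave 22336, 22828 and 22985 in control and 21082, 20940.0 and 19663 after H2O2, and the log2 fold change was -0.14 (SE 0.051, adjusted p = 0.026). CDKN1A, which encodes the CDK inhibitor p21, gave 6586, 5786 and 5239 in TIGK control and 8638, 9259.6 and 9103 after H2O2, a rise of 0.62 (SE 0.074, adjusted p = 3.9e-06). Its counts in HaCaT were 10909, 10239.7 and 10616 in control and 10425, 12228 and 12081 after H2O2, and the log2 fold change was 0.13 (SE 0.074, adjusted p = 0.16). Other CDK inhibitor genes rose too: CDKN2B by 0.85 ± 0.072 and CDKN2C by 0.81 ± 0.22 in TIGK, and CDKN2D by 0.80 ± 0.21 in HaCaT. The call of CDKN2C in TIGK was lost in 6 and that of CDKN2D in HaCaT in 5 of 21 alternative analyses. CDC25A, the phosphatase that activates CDK2, rose by 0.32 (SE 0.068, adjusted p = 0.00073) in HaCaT and had a log2 fold change of -0.18 (SE 0.067, adjusted p = 0.04) in TIGK. FBXW7, which marks cyclin E for degradation, fell in HaCaT, at -0.39 ± 0.092.

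Of 11 S phase checkpoint genes, 3 rose and 2 fell in HaCaT and 4 rose in TIGK. In HaCaT both counts lie near those over the 9328 more abundant genes, of which 29.7% were higher and 19.1% lower. WEE1, the kinase that holds CDK1 and CDK2 inactive, gave 1900.2, 1927 and 1971 normalised counts in HaCaT control and 5672, 4902 and 4822 after H2O2, and in TIGK 2251, 2274 and 2325 in control and 4703, 4649 and 4526 after H2O2. It rose in both lines, by 1.41 (SE 0.061, adjusted p = 3.1e-12) and 1.02 (SE 0.061, adjusted p = 2.9e-10), more than any of the 40 genes. CHEK2, a checkpoint kinase, rose by 0.50 ± 0.088 in HaCaT and 0.36 ± 0.089 in TIGK, ETAA1, an activator of ATR, rose by 0.66 ± 0.087 in TIGK, and ATM fell in HaCaT, at -0.44 ± 0.12. The calls of CHEK2 in TIGK and ATM in HaCaT were each lost in 5 of 21 alternative analyses.

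Genes of mitosis, which act after S phase, were listed for comparison. Of 20 mitosis genes, 16 rose in HaCaT and 15 rose in TIGK by edgeR's test, and all 20 had log2 fold changes above 0 in both lines. Their median log2 fold changes were 0.49 in HaCaT and 0.40 in TIGK, above those of the 40 genes, 0.28 and 0.15. Among the 9328 more abundant genes, 29.7% were higher in HaCaT and 16.1% in TIGK. AURKA, a kinase of the spindle poles, rose by 0.85 (SE 0.067, adjusted p = 1.4e-08) in HaCaT and 0.76 (SE 0.066, adjusted p = 6.5e-08) in TIGK. KIF20A, a kinesin of cytokinesis, rose by 0.91 ± 0.068 and 0.45 ± 0.067, PLK1, the mitotic kinase, by 0.78 ± 0.076 and 0.33 ± 0.076, and TTK, a spindle checkpoint kinase, by 0.53 ± 0.092 and 0.78 ± 0.094. CENPE, a kinetochore motor, rose by 0.51 ± 0.073 in TIGK and had a log2 fold change of 0.09 ± 0.075 in HaCaT.

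**Figure D5:**
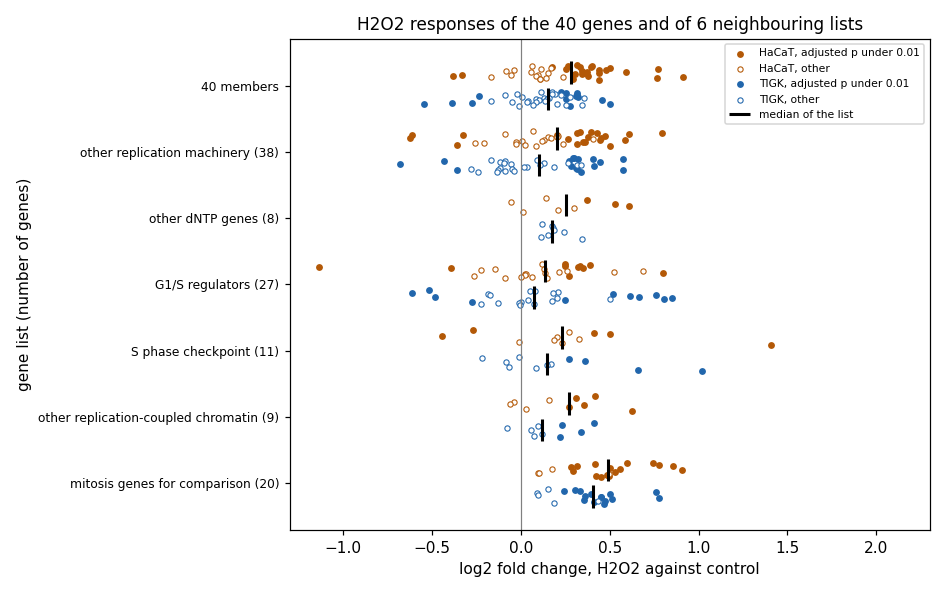
Log2 fold changes after H2O2 of the 40 genes and of 6 neighbouring lists, with 1 point per gene, HaCaT in brown and TIGK in blue, filled where the adjusted p was under 0.01, and a black bar at the median of each list and line. All medians lie right of 0, and those of the mitosis list, 0.49 and 0.40, lie farthest right.

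The deposited gene models differ in length. Across the 40 genes, Spearman's rho between model length and log2 fold change was -0.39 in HaCaT, 0.01 in TIGK and 0.44 for the difference of the responses, where it was -0.20, -0.13 and 0.13 over all 16618 genes tested. These are correlations across genes measured in the same libraries, genes are not independent replicates, and the part of length in the responses was not tested. FEN1 shares 4265 of the 4608 bases of its span with FADS2 on the same strand and CHAF1B shares 771 bases with MORC3 on the same strand, so their reads may be assigned otherwise. Named pseudogene copies of the 40 genes held few reads, with a mean of 3.17 counts for RRM2P3 and at most 0.333 for each of the 10 others found.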

How the data were processed

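The authors deposited raw read counts per gene of GRCh38 for all libraries. Per the paper's methods and the submitters' processing notes, reads were mapped with HISAT2 2.0.5 and counted with featureCounts 1.5.0-p3, with StringTie 1.3.3b for assembly, whereas the labels name HISAT2 2.0.0 and FPKM values. The annotation release, use of strand and treatment of multiply mapped reads are not given in the sources used here. The treatment label of exposed samples writes H2O2 with a last digit that grows with the replicate number, and all were taken as H2O2, as the treatment protocol says. Files that hold the authors' own DESeq2 fold changes and p-values were not used. The table had 0 columns of sample values that were not used and 0 lines without a gene.

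Groups followed the labels. Counts of genes with a mean of at least 10 were fitted in R 4.3.3 with edgeR 4.0.16 (TMM, quasi-likelihood, 1 mean per group, all 12 libraries), and p-values were adjusted by Benjamini-Hochberg over 16618 genes. The limit of 0.01 is that of the study. Alternatives were DESeq2 1.42.0, other scalings and filters, the groups of a comparison alone, a replicate block and leaving out each library. A further alternative left out HaCaT H2O2 replicate 3 together with TIGK control replicate 3. Other limits were applied to the numbers of genes called. Statements that a gene's call held or was lost in alternative analyses all use the limit of 0.01. Intervals are 95% intervals of the model. Promoters were read from RefSeq tables with Python 3.11.15, and figures were drawn with matplotlib 3.10.9.

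Genes were named by rule: in each comparison the 4 largest rises and falls among the 40 genes past the limit, 11 genes of wide interest, the 3 largest changes of each neighbouring list in each response, and CDKN1A, MYC, CDC25A and CDK6. Other genes are named to account for all 40 or to fill a group, and were chosen after their values were seen. The 40 genes and all lists, written from general knowledge, were chosen with earlier results of these data known.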

Additional observations from a re-analysis of the deposited data

Results flagged for a closer look

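The H2O2 responses of 5 of the 40 genes differed between the lines by a test of the difference itself, the interaction of line and exposure in the edgeR model, each with a lower response in TIGK. Lower calls made up 2.98% of all genes tested and 4.62% of the 9328 more abundant genes. The difference, TIGK minus HaCaT on the log2 scale, was -0.86 for CDT1, -0.71 for E2F1, -0.63 for CCNE1, -0.49 for GINS1 and -0.45 for SLBP. The calls of CDT1 and E2F1 held in all 20 alternative analyses, and the other 3 were lost in some, most often that of CCNE1. GINS1 moved in opposite directions in the 2 lines, with all 3 exposed libraries above the untreated ones in HaCaT and all 3 below in TIGK.

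Among the neighbouring genes named, the same test gave a higher response in TIGK for MYC at 0.90, CDKN2B at 0.64, CDK6 at 0.52 and CDKN1A at 0.49, where CDK6 fell less in TIGK than in HaCaT. It gave a lower response in TIGK for CDC25A at -0.51, KIF20A at -0.45, CDCA7 at -0.41 and WEE1 at -0.39. Of 20 alternative analyses, 15 lost the call of WEE1, 9 that of KIF20A, 4 that of CDKN1A and 3 each those of CDC25A and CDCA7. Groups of 3 libraries were not searched for outlying values.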

How the results depend on the processing

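No gene of the 40 changed the sign of a called difference under any alternative. For a limit of 0.01 together with a change of at least 1.5-fold, the shares of all genes tested were not computed, so the counts cannot be set against them. The counts of higher and lower genes were 0 and 0 for the response of TIGK, 4 and 0 for that of HaCaT, 12 and 2 for the untreated lines, 9 and 2 for the exposed lines, and 3 lower for the difference of the responses. That difference gave 1 higher gene, RRM2, with no filter on low counts and 1 at a limit of 0.05. With each library left out in turn, the response of TIGK gave 5 to 15 higher and 1 to 4 lower genes, that of HaCaT 19 to 23 higher and 2 lower, the untreated lines 20 to 26 and 6 to 7, the exposed lines 17 to 22 and 7 to 8, and the difference of the responses 0 higher and 2 to 5 lower. Per gene, the alternative analyses were judged at the limit of 0.01 without a fold limit. Calls then held in all of them for 6 of 14 genes in TIGK, 20 of 25 in HaCaT, 26 of 32 untreated, 24 of 28 after H2O2 and 2 of 5 for the difference. In the comparison of the untreated lines, the call of MCM3 was lost in 12 of 21 alternatives and that of MCM7 in 7.

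No pairing of the samples by replicate number was seen: deviations from the group means correlated at -0.0319 to 0.0257 between same-numbered libraries. Such values do not exclude that same-numbered samples were handled together, and the labels do not say. A replicate block gave 9 higher and 4 lower genes in TIGK, 22 and 2 in HaCaT, 24 and 7 untreated, 19 and 8 after H2O2, and 0 and 4 for the difference. Without HaCaT H2O2 replicate 3 and TIGK control replicate 3, an alternative chosen after seeing the data, the counts were 10 and 4, 23 and 2, 26 and 7, 21 and 8, and 0 and 4. The lowest of the 40 genes had 201 raw counts in its lowest library, and counting error and the spread between replicates both limit the precision for such genes.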
